A study of Mus musculus with 58 samples.

Results

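The genes described here are 10 transcripts that mark microglia or that microglia make in large amounts. They are Csf1r, Cx3cr1, P2ry12, Aif1, Tmem119, C1qa, C1qb, C1qc, Cd68 and Tyrobp. They were taken by symbol from a table of read counts for 52459 genes in the mouse retina, and all 10 were found there. They were followed over 6 time points of the day in control and diabetic animals. A gene was tested if its median over all libraries was above 4 normalized counts, where a normalized count is the number of reads divided by the size factor of the library. Of 19120 genes that passed, 9 were among these 10, and Aif1 did not pass.

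Microglia are the resident macrophages of the retina, where they survey neurons and vessels with moving processes and engulf debris and synapses. They depend on the growth factor receptor encoded by Csf1r, and neurons hold them in check through the fractalkine receptor encoded by Cx3cr1. C1q, the recognition unit of the classical complement pathway, is built from the chains encoded by C1qa, C1qb and C1qc. It binds targets and starts the cascade that tags them with C3, and in nervous tissue microglia are its main source.

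The diabetic animals were male mice heterozygous for Ins2Akita, a dominant mutation of the insulin 2 gene that misfolds proinsulin and leads to hyperglycemia. The controls were wild-type male littermates, labelled C57/BL/6. All were 4 months old and had been kept in a cycle of 12 h light and 12 h dark. Zeitgeber time (ZT) counts hours from lights on, and night retinas were dissected under dim red light. Control retinas numbered 5, 6, 5, 5, 5 and 4 in the order ZT1, ZT5, ZT9, ZT13, ZT17 and ZT21, which makes 30. Diabetic retinas numbered 5, 5, 5, 4, 4 and 5, which makes 28. Animals were perfused with saline before dissection, and total RNA of single whole retinas was depleted of ribosomal RNA and sequenced. The labels do not say that each retina came from a separate animal, so p-values measure the spread between these libraries. In whole tissue, fewer microglia and less RNA per microglial cell cannot be told apart.

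Control libraries held 7773117 to 19929725 counted reads and diabetic libraries 8588878 to 22147398. Lens markers summed to more than 1000 CPM, counts scaled to the depth of the library, in 3 control libraries. Melanocyte markers (Tyr, Tyrp1, Dct, Pmel and Mlana) summed to more than 30 CPM in 7 control and 7 diabetic libraries. Tests of the 9 tested genes were repeated without these libraries. Calls of other single genes, and the correlations, are given with all libraries only. Other myeloid cells were checked by their markers. All 8 markers of monocytes and neutrophils, among them Ccr2, S100a8 and Ly6g, had a median of 0 reads. The 8 markers of border macrophages summed to 11.1 to 17.4 CPM in control and 9.40 to 17.1 CPM in diabetic libraries, nearly all from Lyve1 and Stab1. The defining Mrc1 had a mean normalized count of 7.36 ± 5.38 (SD, n = 30) in control retinas, against 8.56 ± 3.32 (SD, n = 28) with diabetes.

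All 10 genes were read in every library, at low levels. Reads of a whole retina do not show which cell they came from. Per kilobase of exon, C1qa was the most abundant with 3.14 ± 0.666 CPM (SD, n = 58), followed by C1qb with 2.61 ± 0.573. Csf1r had 1.55 ± 0.215 and C1qc 1.43 ± 0.387 CPM per kilobase. Cd68, a glycoprotein of the lysosome, had 1.14 ± 0.314, and Tyrobp, the adaptor that signals for TREM2, had 1.13 ± 0.424. The receptors and surface markers of resting microglia were lower, with 0.793 ± 0.142 for Cx3cr1, 0.619 ± 0.149 for P2ry12 and 0.595 ± 0.158 for Tmem119. Aif1, which encodes IBA1, was last with 0.184 ± 0.0995. Neighbours in this order overlapped within 1 SD, except C1qb with Csf1r and Tmem119 with Aif1. Among 18334 genes ranked on this scale, C1qa stood at percentile 45.1 and Aif1 at percentile 4.69. The 10 genes together made 22.7 to 35.4 CPM in control libraries (median 27.4) and 22.1 to 32.6 CPM in diabetic libraries (median 25.1).

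**Figure D1:**
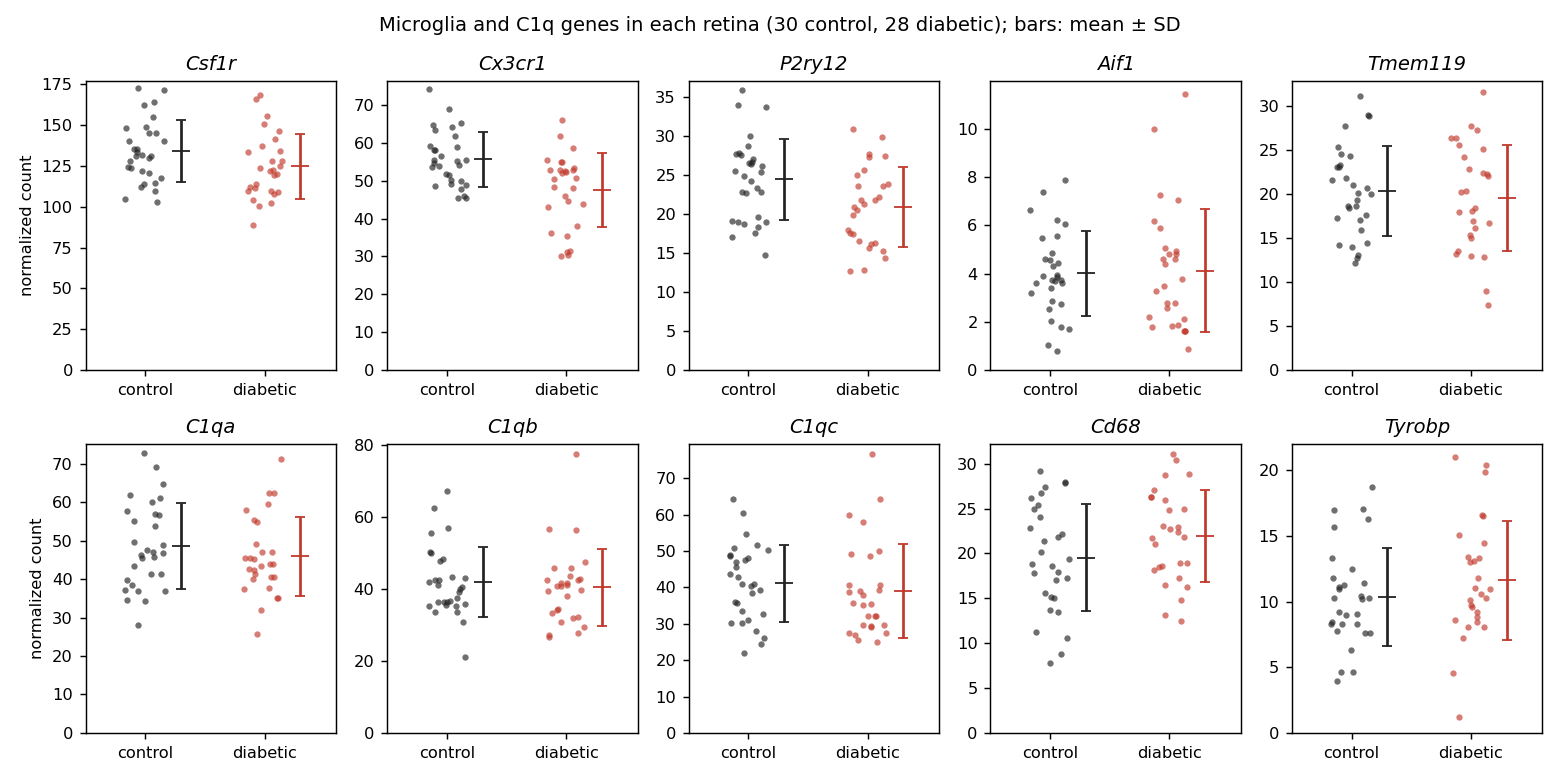
Normalized counts (reads divided by the size factor of the library, linear axes from 0) of the 10 genes, with 1 dot per retina and bars for the mean ± SD of 30 control and 28 diabetic retinas over all time points. Dots of the genotypes overlap in every panel, and the diabetic mean of Cx3cr1 (47.4) lies below the control mean (55.7).

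The first question was whether diabetes changed these genes irrespective of the time of day. Cx3cr1 fell and was the only 1 of the 9 tested genes that passed an adjusted p of 0.05. In control retinas Cx3cr1 ran from 45.5 to 74.1 normalized counts with a median of 54.9, and in diabetic retinas from 30.1 to 65.9 with a median of 50.6. The groups overlapped, with 23 of 28 diabetic retinas below the control median. Control retinas had a mean of 55.7 ± 7.21 (SD, n = 30), against 47.4 ± 9.77 (SD, n = 28) in the diabetic ones. Cx3cr1 fell by 14.4% (95% interval -22.0% to -6.14%), a log2 fold change of -0.23 ± 0.0667 (SE) with an adjusted p of 0.0448 by edgeR's quasi-likelihood test with Benjamini-Hochberg adjustment. Among all 19120 genes, 572 passed (2.99%) and 269 of them were lower in diabetic retinas (1.41%).

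The call of Cx3cr1 was close to the threshold. At no single hour did it have an unadjusted p under 0.05 in edgeR, with values from 0.0780 at ZT17 to 0.294 at ZT21. The diabetic mean lay below the control mean at each of the 6 time points, which held for 5.98% of all genes. At ZT9 the control values were 45.5, 45.5, 49.1, 54.2 and 64.2, and the diabetic values were 30.5, 36.2, 38.1, 52.2 and 52.5 normalized counts. At ZT17 the control values were 49.9, 51.7, 53.6, 53.9 and 65.2, and the diabetic values were 30.1, 43.8, 50.7 and 54.8. At both time points the lowest retinas were diabetic and the highest were control, with overlap between them. Leaving out any 1 of 28 libraries, of 58 tried in turn, took the adjusted p above 0.05, up to 0.0712, while the log2 fold change stayed between -0.25 and -0.20. Without the libraries high in lens markers the adjusted p was 0.0742, and without those high in melanocyte markers it was 0.198, at log2 fold changes of -0.22 and -0.23.

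Markers of photoreceptors lay on the same side over all time points. All 5 cone markers had a negative log2 fold change, with a median of -0.12, and 2 of them fell, Gnat2 (-0.12, adjusted p = 0.00760 in edgeR) and Pde6h (-0.14, adjusted p = 0.00173). DESeq2 called 3, these and Opn1mw. Of all genes 2.99% passed in edgeR and 49.4% had a negative log2 fold change. All 6 rod markers had a negative log2 fold change, with a median of -0.07, and 0 passed in edgeR or DESeq2, with 3 at an unadjusted p under 0.05, which 15.5% of all genes had. Summed cone markers ran from 714 to 910 CPM in control and from 644 to 855 CPM in diabetic libraries. Summed rod markers ran from 36366 to 48528 CPM and from 30704 to 46175 CPM. Of 3 tested markers of border macrophages 1 passed in edgeR and in DESeq2, Lyve1, lower in diabetic retinas (-0.22, adjusted p = 0.0226 in edgeR). Mrc1 and Stab1 had log2 fold changes of 0.24 and 0.15. The part of all these markers in the value of Cx3cr1 was not tested.

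P2ry12, the receptor through which microglial processes sense ADP released by damaged cells, had a log2 difference of similar size. It ran from 14.8 to 35.9 normalized counts in control retinas (median 25.2) and from 12.7 to 30.9 in diabetic retinas (median 21.1). Of 28 diabetic retinas, 22 lay below the control median, and the diabetic mean was lower at all 6 time points, as for 5.98% of all genes. At ZT1 its fitted log2 fold change was 0.00 (unadjusted p = 0.987 in edgeR). Over all time points its log2 fold change was -0.22 ± 0.0907 (SE), with an unadjusted p of 0.0197 and an adjusted p of 0.209 in edgeR, so it did not pass.

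The bases before the starts of Cx3cr1 and P2ry12, the genes with the largest of these differences, were searched for a pair of motifs to give their sequence context. A window is the 250 bases before a gene's start as RefSeq gives it on GRCm38.p6. The motifs were GAGGAA, a core of the sites bound by PU.1, the factor that specifies the macrophage lineage, and CACGTG, an E-box of the kind bound by clock factors. Both were searched on both strands, where GAGGAA reads as TTCCTC on the other strand and CACGTG reads the same. Among 32851 windows of this length, GAGGAA was present in 23.3% and CACGTG in 6.02%. The Cx3cr1 window, chr9:120068297-120068546 on the minus strand, held neither. The RefSeq start of Cx3cr1 lies 1583 bases inside the gene as Gencode M21 draws it, and the whole window falls in an untranslated exon of 1 of its transcripts, so its sequence is not shown. The P2ry12 window, chr3:59262986-59263235 on the minus strand, lies before the gene's start in both annotations and within an untranslated exon of Med12l, a gene on the other strand. It held 1 E-box that began 228 bases before the RefSeq start, and 30 bases around it, at chr3:59263196-59263225, are shown 5′ to 3′ on the strand of P2ry12 with the E-box in capitals.
P2ry12: cccatgggttcaCACGTGatgacatcgcag

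The other surface and lineage genes did not pass the test. Csf1r, the receptor for CSF1 and IL-34, had 134 ± 18.9 normalized counts in control and 125 ± 19.8 in diabetic retinas, a log2 fold change of -0.10 ± 0.0559 (SE, adjusted p = 0.377 in edgeR). Tmem119, a membrane protein used to mark resident microglia, had a log2 fold change of -0.07 ± 0.107 (SE, adjusted p = 0.859). Aif1 was read 1 to 12 times per library, with means of 4.01 ± 1.75 normalized counts in control and 4.12 ± 2.56 in diabetic retinas. With no filter on low counts, its log2 fold change was 0.04 with an adjusted p of 0.972.

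No chain of C1q passed the test over the whole day. C1qa ran from 28 to 72.9 normalized counts in control and from 25.9 to 71.3 in diabetic retinas, with medians of 46.9 and 44.0. Its log2 fold change was -0.08 ± 0.0842 (SE, adjusted p = 0.749 in edgeR), with an interval from -15.7% to 6.48%. C1qb had -0.06 ± 0.0886 (adjusted p = 0.836, interval from -15.2% to 8.47%). C1qc had -0.07 ± 0.105 (adjusted p = 0.846, interval from -17.6% to 10.4%). Without the libraries high in melanocyte markers the log2 fold changes were -0.15 for C1qa, -0.15 for C1qb and -0.19 for C1qc, and that of C1qb was -0.11 without diabetic replicate 3 at ZT17, and none of these passed in edgeR. The mean of each chain was lower in diabetic retinas at 3 time points and higher at the other 3.

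The phagocytic genes lay on the other side of 0 without passing the test. Cd68 had 19.5 ± 6.01 normalized counts in control and 21.9 ± 5.12 in diabetic retinas, a log2 fold change of 0.17 ± 0.107 (SE, adjusted p = 0.494 in edgeR). Tyrobp had 10.4 ± 3.74 and 11.6 ± 4.56, a log2 fold change of 0.15 ± 0.141 (SE, adjusted p = 0.697). Thus 7 of the 9 genes had a negative log2 fold change, as did 49.4% of all genes tested, with medians of -0.07 for the 9 and 0.00 for all. By unadjusted p under 0.05, 2 of the 9 (Cx3cr1 and P2ry12) were counted, against 15.5% of all genes.

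**Figure D2:**
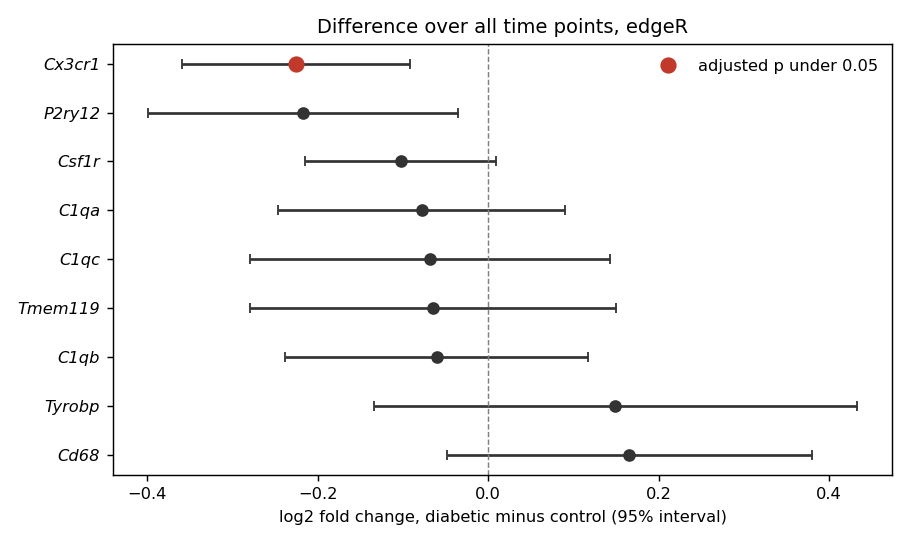
Log2 fold change, diabetic minus control, over all time points for the 9 tested genes (points) with 95% intervals (bars), from edgeR on 30 control and 28 diabetic retinas; the red point marks an adjusted p under 0.05. Cx3cr1 and P2ry12 lie at -0.23 and -0.22 with intervals below 0, and the other 7 intervals include 0.

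The second question was whether the genotypes differed at single time points. None of the 9 genes passed at any of the 6 time points in edgeR, and none did in DESeq2. Among all genes, ZT1 had 2 that passed (0.0105%), ZT5 had 4 (0.0209%), ZT9 had 1 (0.00523%), ZT13 had 0 (0.0%), ZT17 had 32 (0.167%) and ZT21 had 0 (0.0%). At ZT13 and ZT21, 852 (4.46%) and 892 (4.67%) genes had an unadjusted p under 0.05 in edgeR, and DESeq2 called 1 and 2. At no time point did the control and diabetic values of any of the 10 genes fall into separate ranges, which 0.91% of all genes did at ZT1, 1.1% at ZT5, 0.774% at ZT9, and 1.07%, 1.97% and 2.23% at the 3 night hours.

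An unadjusted p under 0.05 was found for C1qb at ZT1 and for P2ry12 at ZT9, and for no other of the 9 genes at any time point. Among all genes such a p was found in 6.15% at ZT5 and in 8.82% at ZT17, where it was found for 0 of the 9. C1qb at ZT1 had 39.3, 41.2, 43.0, 47.7 and 50.4 normalized counts in control and 26.7, 27.7, 29.5, 39.6 and 42.6 in diabetic retinas. Diabetic values were mostly lower, with 2 of 5 inside the control range, and the log2 fold change was -0.40 ± 0.199 (SE, unadjusted p = 0.0474, adjusted p = 0.894 in edgeR). At this hour 5.5% of all genes had an unadjusted p under 0.05. P2ry12 at ZT9 had 26.4, 27.1, 27.6, 27.9 and 35.9 in control and 12.7, 17.5, 23.7, 23.9 and 27.7 in diabetic retinas. Here 4 of 5 diabetic retinas lay below every control, and the log2 fold change was -0.47 ± 0.209 (SE, unadjusted p = 0.0283, adjusted p = 1.00 in edgeR). At this hour 4.49% of all genes had an unadjusted p under 0.05.

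Aif1, below the filter, was uneven among the diabetic groups. At ZT5 the diabetic values were 0.897, 1.62, 1.64, 1.81 and 1.89 normalized counts, from 1 or 2 reads each. At ZT9 they were 5.08, 6.19, 7.26, 9.995 and 11.5, from 3 to 12 reads each. The control values ran from 1.04 to 7.90 at ZT5 and from 1.71 to 7.40 at ZT9, so the genotypes overlapped at both hours.

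The third question was which of these genes had a daily rhythm in each genotype. Rhythm was tested with a re-implementation of empirical JTK_CYCLE on normalized counts, and a gene was called with an unadjusted p under 0.05 and its highest library more than 25% above its lowest. By this criterion 4172 genes were rhythmic in control retinas (21.8%) and 4565 in diabetic retinas (23.9%). Among the 9 genes these were 1 in control (Csf1r) and 2 in diabetic retinas (Csf1r and C1qc). The share of the 9 was not above that of all genes in either genotype.

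Csf1r was called rhythmic in both genotypes, with its peak at night. At ZT5 control values were 110 to 132 (median 119, n = 6) and diabetic values were 88.8, 108, 114, 120 and 122 normalized counts. At ZT21 control values were 145, 148, 162 and 164 and diabetic values were 112, 124, 125, 156 and 166. In control retinas, where these hours had the lowest and the highest mean, their ranges were separate. In diabetic retinas the lowest mean was at ZT1, with values of 100, 102, 104, 109 and 128. The highest was at ZT13, with 134, 134, 141 and 147, and these ranges were separate as well. The diabetic mean was 138.9 at ZT13 and 138.3 at ZT17, where values from 112 to 168 overlapped those at ZT1. Without diabetic replicate 1 or 5 at ZT13 the highest mean was at ZT17. The hours were picked by these means, and for hours picked in this way the ranges were separate in 15.8% of all genes in control and 18.7% in diabetic retinas. The relative amplitude, the amplitude of a fitted cosine over its mean, was 11.1% ± 3.06 (SE) in control with a peak at ZT18.1, and 14.0% ± 3.47 (SE) in diabetic retinas with a peak at ZT16.1. Against random series the permutation p was 0.00797 in control and 0.00379 in diabetic retinas. After Benjamini-Hochberg adjustment over all genes it was 0.0741 and 0.0406. Adjusted, 8.23% of genes passed in control and 9.8% in diabetic retinas. The control call was lost without ZT5 or without ZT21 (permutation p = 0.0668 and 0.0695). The diabetic call was lost without the libraries high in melanocyte markers (permutation p = 0.139), which included 2 of 4 diabetic retinas at ZT13 and 2 of 4 at ZT17. In the edgeR test of any difference between time points the adjusted p was 0.131 in control and 0.0632 in diabetic retinas, so neither passed. In an edgeR cosine the adjusted p was 0.0634 in control and 0.0211 in diabetic retinas, where 2096 and 2366 of the 19120 genes passed. Of the exon bases of Csf1r, 15.1% are shared with Hmgxb3 on the opposite strand, and the strand setting of the counting is not given in the sources used here.

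C1qc was called rhythmic in diabetic retinas, with its highest mean at ZT17 in both genotypes. In diabetic retinas the lowest mean was at ZT1, with values of 24.9, 25.6, 32.2, 32.3 and 35.2 normalized counts, and at ZT17 they were 38.9, 39.2, 64.4 and 76.8. In control retinas the lowest mean was at ZT9, with 24.3, 27.9, 38.5, 41.0 and 42.8, and the ZT17 values were 47.1, 48.0, 49.0, 54.7 and 60.4. In each genotype all ZT17 values lay above all values of its lowest hour, as the highest hour did for 15.8% of all genes in control and 18.7% in diabetic retinas. The relative amplitude of C1qc was 25.8% ± 7.67 (SE) in diabetic retinas with a peak at ZT15.6, and 16.9% ± 5.83 (SE) in control with a peak at ZT17.2. Its permutation p was 0.0143 in diabetic (adjusted p = 0.0945) and 0.0658 in control retinas (adjusted p = 0.257).

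The other chains of C1q did not pass the test and also had their highest mean at ZT17, which in diabetic retinas rested on 1 library. Mean C1qa at ZT17 was 58.9 ± 11.3 (SD, n = 5) in control retinas, and 56.0 ± 12.1 (SD, n = 4) with diabetes, against lowest means of 41.9 at ZT9 and 41.4 at ZT5. Mean C1qb at ZT17 was 53.2 ± 12.4 and 49.7 ± 19.2, against lowest means of 36.6 at ZT9 and 33.2 at ZT1. Without diabetic replicate 3 at ZT17 the diabetic mean at that hour was 50.9 for C1qa, below the 51.2 at ZT21, and 40.4 for C1qb, below the 46.0 at ZT13. Without diabetic replicate 3 at ZT13, C1qb was also highest at ZT13, with 52.3. The fitted peak of C1qa lay at ZT21.7 in control and ZT18.0 in diabetic retinas, and that of C1qb at ZT18.6 and ZT14.5. C1qa had a permutation p of 0.257 in control and 0.0914 in diabetic retinas. C1qb had 0.144 and 0.0914. For the remaining genes it ranged from 0.133 (Tmem119) to 0.643 (Cd68) in control and from 0.254 (Cd68) to 0.761 (Tyrobp) in diabetic retinas.

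The summed level of the melanocyte markers also varied with the hour, and its part in these profiles was not tested. In diabetic retinas it had group medians of 18.8, 5.43, 13.3, 37.6, 23.3 and 19.2 CPM in the order of the hours from ZT1. The highest medians fell at ZT13 and ZT17, and the median at ZT1, where mean Csf1r and C1qc were lowest, was above those at ZT5 and ZT9. In control retinas the median was lowest at ZT17 (11.7 CPM), where the means of the C1q chains were highest, and its highest was 17.8 CPM at ZT5, and ZT17 also held the library with the highest sum of all, 79.6 CPM. Tyr, Tyrp1 and Dct, 3 of the 4 tested melanocyte markers, were called rhythmic in diabetic retinas, where 23.9% of all genes were, and 0 of 4 in control, where 21.8% were. Markers of other cells were called too. In control and diabetic retinas these were 5 and 5 of 7 for pigment epithelium and 4 and 3 of 5 for cones. For Muller glia they were 3 and 4 of 6, for endothelium 4 and 3 of 7 and for rods 1 and 2 of 6. Their part in these profiles was not tested either. Without the libraries high in melanocyte markers, the permutation p of C1qc in diabetic retinas was 0.159, so like Csf1r it was not called. That left out 2 of 4 diabetic retinas at ZT13 and 2 of 4 at ZT17, where the means of both genes were highest. The loss of these retinas and their melanocyte level cannot be told apart here. In control retinas the permutation p of C1qc without the libraries high in melanocyte markers was 0.0171, below the threshold. Leaving out ZT1 or ZT17 also ended the call of C1qc in diabetic retinas (permutation p = 0.109 and 0.157).

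**Figure D3:**
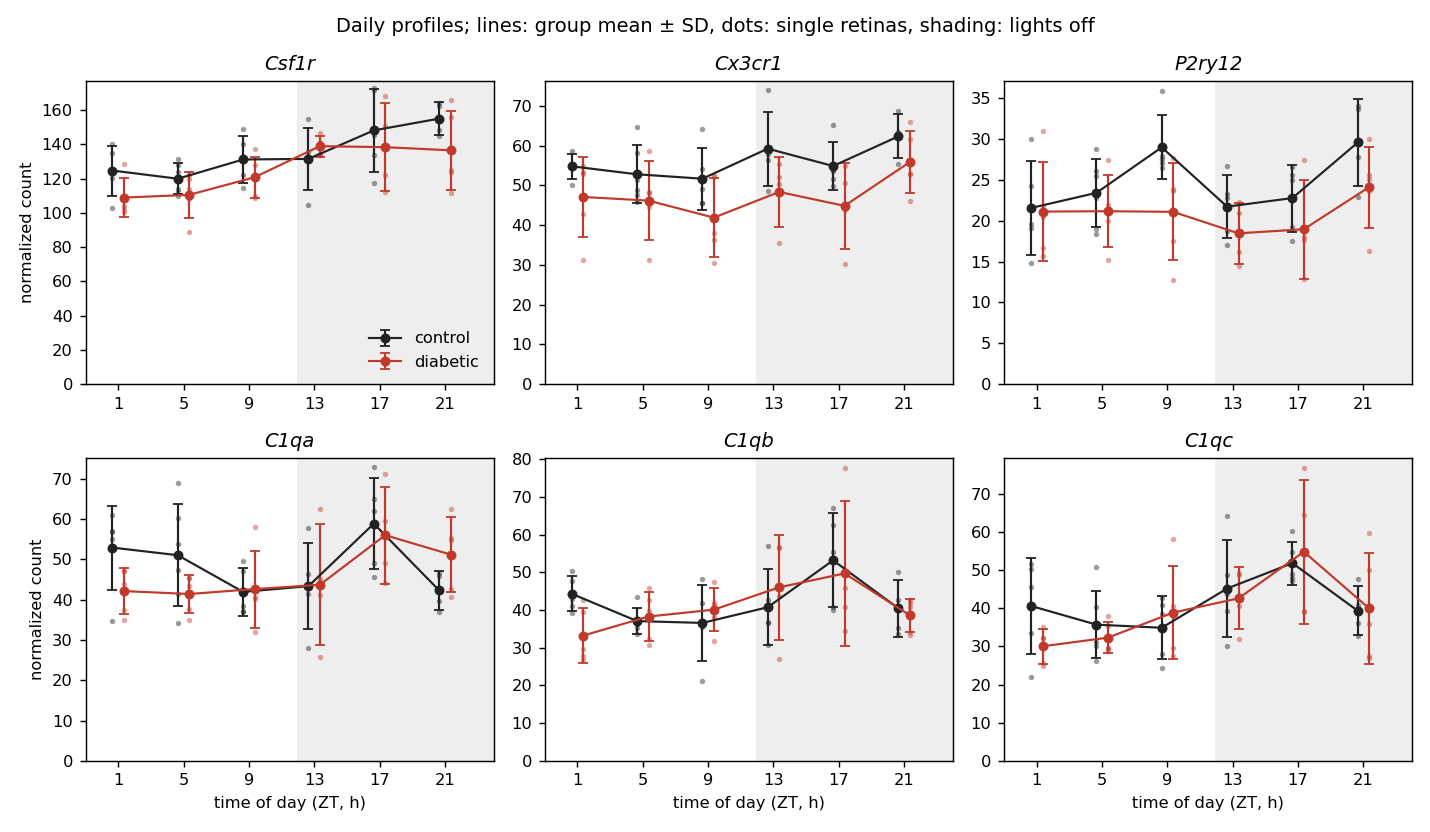
Normalized counts of 6 genes over ZT in control (black) and diabetic (red) retinas, with dots for single retinas, points and bars for the group mean ± SD and grey shading for lights off. Mean C1qa, C1qb and C1qc are highest at ZT17 in both genotypes, though not for C1qa and C1qb in diabetic retinas without replicate 3 at ZT17 or, for C1qb, replicate 3 at ZT13, and the diabetic means of Cx3cr1 and P2ry12 lie below the control means at every time point.

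The genotypes were not shown to differ in rhythm. In an edgeR model with a cosine and a sine of 24 h for each genotype, the unadjusted p of the difference ranged from 0.129 (C1qb) to 0.709 over the 9 genes. None of the 9 had an unadjusted p under 0.05, and 0 of 19120 genes passed after adjustment (0.0%), with 657 (3.44%) at an unadjusted p under 0.05 and 0 by DESeq2. A rhythm of C1qc called in diabetic and not in control retinas is therefore not shown to be a difference between them.

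The chains of C1q are neighbours in the genome. Gencode M21 on GRCm38 places C1qb at chr4:136880129-136886187, C1qc at chr4:136889804-136893065 and C1qa at chr4:136895917-136898803, all on the minus strand with no overlapping gene. Bases before the starts of C1qb and C1qc are shown because these genes varied together between retinas, 5′ to 3′ on the genes' strand with GAGGAA, on either strand, in capitals. The C1qb window, chr4:136886201-136886450, lies before the gene's start in both RefSeq and Gencode M21 and held 1 GAGGAA that began 30 bases before the RefSeq start.
C1qb: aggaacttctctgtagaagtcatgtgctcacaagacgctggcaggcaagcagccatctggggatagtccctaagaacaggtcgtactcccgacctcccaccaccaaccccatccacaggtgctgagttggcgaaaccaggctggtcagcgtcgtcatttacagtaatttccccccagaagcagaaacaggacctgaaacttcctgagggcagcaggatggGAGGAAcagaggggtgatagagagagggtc
The C1qc window, chr4:136892915-136893164, held 1 such motif on the other strand, 193 bases before the RefSeq start. With the bases before it, it made the longer ACTTCCTC, which reads GAGGAAGT on the other strand and was present in 2.44% of windows. Gencode M21 starts C1qc 151 bases farther upstream, so only the 99 bases that lie before both starts, chr4:136893066-136893164, are shown.
C1qc: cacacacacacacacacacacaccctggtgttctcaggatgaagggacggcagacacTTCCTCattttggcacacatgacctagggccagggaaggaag
Neither window held CACGTG.

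Whether the genes varied together between retinas was described by their deviations from the means of the 12 groups of genotype and time point, on log2 CPM, over the 58 libraries. The 36 pairs of the 9 genes had a median Pearson's r of 0.209, and 32 pairs were positive. The highest was C1qa with C1qc (0.668), followed by C1qb with C1qc (0.608), Csf1r with C1qa (0.562) and C1qa with C1qb (0.545). P2ry12 stood apart, with an r of 0.232 with Cx3cr1 and of -0.387 with Cd68, the lowest of all pairs.

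These deviations also moved with measures of the whole library. The mean deviation of the 9 genes had an r of 0.672 with the first principal component of all genes, which held 19.4% of the variance, and of 0.310 with log2 depth. C1qb and C1qc had an r of 0.671 and 0.606 with this component, Cx3cr1 0.140 and P2ry12 0.0107. The mean of the 9 genes had an r of 0.599 with the melanocyte markers, 0.585 with those of Muller glia, 0.507 with endothelium, 0.326 with rods, 0.1103 with pigment epithelium and -0.109 with cones. With the list of microglial identity it was 0.437, and with disease-associated microglia 0.689. For the melanocyte markers, r was 0.556 with C1qa, 0.538 with Csf1r, 0.534 with C1qc and -0.236 with P2ry12. The part of these measures in the covariation was not tested.

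**Figure D4:**
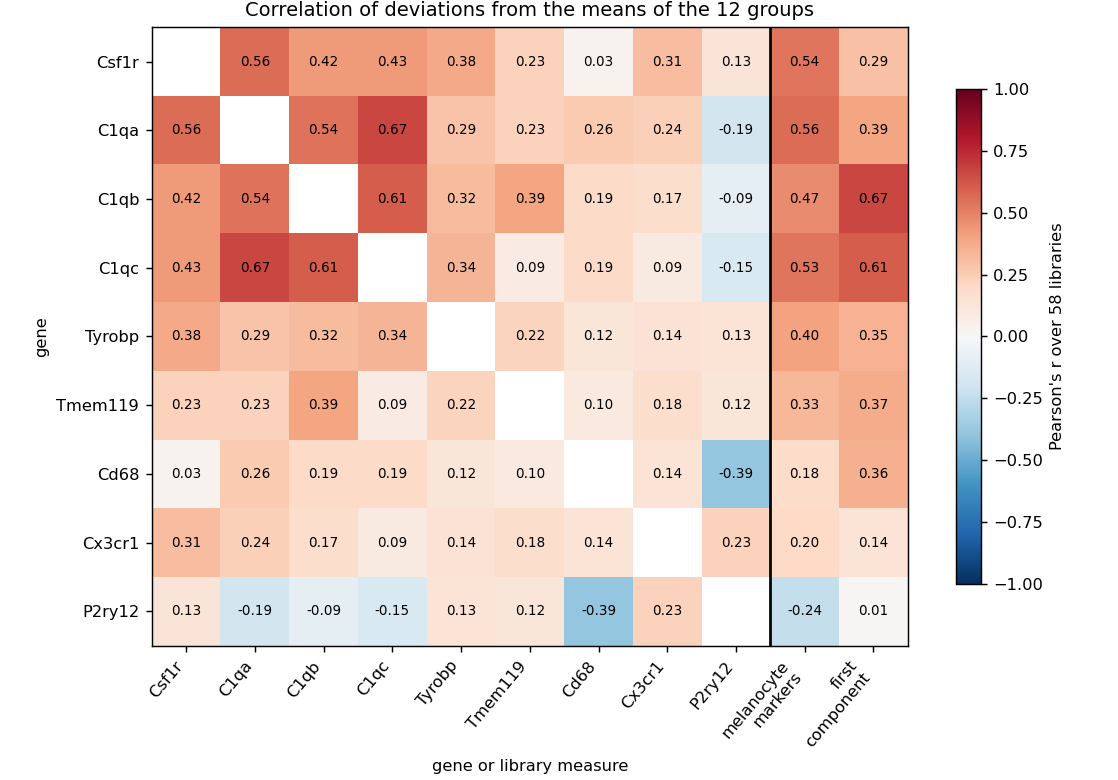
Pearson's r over 58 libraries between the deviations of 9 genes from the means of the 12 groups (log2 CPM), with 2 further columns for melanocyte markers and for the first principal component of all genes; colour runs from -1 (blue) to 1 (red). The block of C1qa, C1qb, C1qc and Csf1r holds the highest values between genes, and all negative values are in the row and column of P2ry12.

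The 10 other genes most like the mean of the 9 were led by Tapbp (r = 0.776), Igfbp5 (0.755), Podxl2 (0.732) and Necab2 (0.731). Slc22a17, Lrrc24, Rab1b, Ndufa11, Nacc2 and Acot11 followed, down to 0.717. None of them was in a list of microglial or complement genes. Over 19111 genes the median r was 0.00369 and the 99th percentile was 0.625.

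The wider genes of microglial identity gave no call over all time points, where 2.99% of all genes passed. Of 25 such genes, 23 were tested, and 0 passed in edgeR and 0 in DESeq2. An unadjusted p under 0.05 in edgeR was found for 3, against 15.5% of all genes. These were P2ry13 and Gpr34, both lower in diabetic retinas, and Mertk, which was higher. P2ry13, a purinergic receptor related to P2ry12, had 10.2 ± 3.96 normalized counts in control and 7.53 ± 2.81 in diabetic retinas, a log2 fold change of -0.42 ± 0.146 (SE, adjusted p = 0.115 in edgeR). Mertk, a receptor for the uptake of dying cells and of photoreceptor outer segments, had 0.11 ± 0.0532 (adjusted p = 0.295). The median log2 fold change of the 23 was -0.03, with 15 negative. In the rhythm test 2 of 23 were called in control (Mertk and Inpp5d) and 2 of 23 in diabetic retinas (Mertk and Itgam), below the 21.8% and 23.9% of all genes.

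Among the ligands of microglial receptors, 0 of 7 passed in edgeR and 0 in DESeq2, against 2.99% of all genes in edgeR, and 0 had an unadjusted p under 0.05, against 15.5%. Cx3cl1, which encodes fractalkine, the neuronal ligand of CX3CR1, had 1315 ± 215 normalized counts in control and 1240 ± 167 in diabetic retinas, a log2 fold change of -0.09 ± 0.0523 (SE, adjusted p = 0.459 in edgeR). Apoe, a lipid carrier that binds TREM2, had -0.08 ± 0.0690 (adjusted p = 0.681). In the rhythm test 2 of 7 were called in control (Cd200 and Tgfb1) and 3 of 7 in diabetic retinas (Il34, Tgfb1 and Tgfb2), against 21.8% and 23.9% of all genes.

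Among the other genes of the complement cascade, 22 of 32 were tested and 1 passed in edgeR, against 2.99% of all genes, as it did in DESeq2. An unadjusted p under 0.05 was found for 4 of the 22 (Masp2, Cfi, Clu and Vtn, all lower in diabetic retinas), against 15.5% of all genes. Vtn, which encodes vitronectin, an inhibitor of the terminal complex and an adhesion protein of plasma and matrix, fell from 8346 ± 786 to 7387 ± 832 normalized counts, a log2 fold change of -0.18 ± 0.0384 (SE, adjusted p = 0.00410 in edgeR). C3, the component that C1q leads to, had 23.1 ± 11.9 and 24.2 ± 9.13 normalized counts (log2 fold change 0.05, adjusted p = 0.938). C4b had a log2 fold change of -0.02 (adjusted p = 0.977). The median of the 22 was 0.00, with 11 negative. Hc, C6, C7, C8a, C9, Cfb and Cfd had a median of 0 reads. In the rhythm test 3 of 22 were called in control and 8 of 22 in diabetic retinas, among the latter Clu and Vtn, against 21.8% and 23.9% of all genes. The difference between these counts was not tested.

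Genes that rise in activated microglia gave no call between the genotypes over all time points, but only part of them could be tested. Of 17 genes of disease-associated microglia, 11 were tested, and 0 passed in edgeR and 0 in DESeq2, with 1 at an unadjusted p under 0.05, where 2.99% of all genes passed in edgeR and 15.5% had such a p. The smallest p was that of Cd9, a membrane organizer also made by glia, with a log2 fold change of -0.10 ± 0.0348 (SE, adjusted p = 0.109 in edgeR). Gpnmb, a lysosomal glycoprotein also made by pigment cells, had 0.38 ± 0.215 (adjusted p = 0.412). Cst7, Itgax, Clec7a, Ccl3, Ccl4 and Ch25h did not pass the filter and were not tested. Mean levels of the tested genes in control retinas ran from 4.29 to 4546 normalized counts (Ctsb), against 134 for Csf1r. Which cells these reads came from was not tested. Of 17 inflammatory cytokines and sensors, 6 were tested, 0 passed in edgeR and 0 in DESeq2, and 1 had an unadjusted p under 0.05, beside the same 2.99% and 15.5%. Tlr4, the receptor for endotoxin, had 0.33 ± 0.160 (SE, adjusted p = 0.296 in edgeR) and its partner Cd14 had -0.20 ± 0.115 (adjusted p = 0.421). In the rhythm test 2 of the 11 genes of disease-associated microglia were called in control (Cd63 and Ctsb) and 5 of 11 in diabetic retinas (Lpl, Cd9, Cd63, Ctsd and Ctsb), against 21.8% and 23.9% of all genes, and the difference between these counts was not tested. Of the 6 inflammatory genes 0 were called in either genotype. Il1b, Tnf, Il6 and Ccl2 had a median of 0 reads.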

How the data were processed

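Total RNA of single mouse retinas was sequenced in 58 libraries. The authors made the deposited counts with STAR 2.7.4a on GRCm38.p5 and Gencode M15, counting reads per gene with HTSeq 0.11.1, and the deposited table holds whole read counts, not normalized, for 52459 symbols, 26 of them turned into dates. Columns were assigned by sample title, and no column was left out.

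Genes were tested if their median was above 4 counts divided by DESeq2 (1.42.0) size factors, the filter of the study. Genotypes were compared with edgeR (4.0.16) quasi-likelihood tests, TMM factors and Benjamini-Hochberg adjustment, with 1 group per genotype or in 1 fit of 12 groups. Rhythm was tested with 30 waveforms of 24 h against 1000000 series of random numbers at the sampled hours, shared by all genes. The p from them is called a permutation p here, and peaks came from a least-squares cosine. R 4.3.3 and Python 3.11.15 were used. Levels per length and positions came from Gencode M21, which matched 48082 symbols, and 6 of the 10 genes had a promoter in the RefSeq table. The tests were checked on simulated counts.

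At 7773117 to 22147398 reads per library, these genes had 1 to 237 reads each, and counting error alone is large for Aif1 and Tyrobp. All 113 pairs of replicates differed by more than sampling noise, so each library was counted once. The 10 genes and all lists were chosen with earlier results of these data known. Named were all 10 genes, in each list every gene past the adjusted threshold or else the 2 with the smallest p, and the 10 genes most like the mean of the 9. C3, C4b, Masp2, Cfi, Gpr34 and the markers of other cells were named outside this rule, after their values were seen. So were the list genes named as rhythmic, at 0 reads or below the filter. Alternatives were DESeq2, other scaling, filters and designs, replicate blocks, each library or time point left out, and, chosen after seeing the data, leaving out libraries high in lens or melanocyte markers.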

Additional observations from a re-analysis of the deposited data

Results flagged for a closer look

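Among 120 groups of 1 gene at 1 time point in 1 genotype, 12 held a library far from the others by Dixon's test, where chance marks about 1 in 20 groups, which is 6.

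For the receptors, Cx3cr1 in control replicate 1 at ZT17 had 65.2 normalized counts, against 49.9 to 53.9 in the other libraries of its group. P2ry12 in control replicate 1 at ZT9 had 35.9, against 26.4 to 27.9, and without this library the log2 fold change of P2ry12 at ZT9 was -0.37 with an unadjusted p of 0.0995 in edgeR. C1qa in control replicate 3 at ZT1 had 34.6, against 55.1 to 61.0. Tmem119 in diabetic replicate 2 at ZT5 had 9.06, against 22.4 to 25.6.

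For the phagocytic genes, Cd68 had 10.6 in control replicate 3 at ZT9 (others 17.9 to 20.1), 28.8 in diabetic replicate 5 at ZT13 (others 17.2 to 19.0) and 14.8 in diabetic replicate 2 at ZT21 (others 21.0 to 23.1). Tyrobp had 18.7 in control replicate 6 at ZT5 (others 8.29 to 10.3), 16.6 in diabetic replicate 2 at ZT1 (others 9.21 to 10.99) and 21.0 in diabetic replicate 4 at ZT21 (others 10.3 to 13.0). Aif1 had 0.897 in diabetic replicate 5 at ZT5 (others 1.62 to 1.89) and 5.92 in diabetic replicate 4 at ZT21 (others 1.63 to 2.78). Diabetic replicate 4 at ZT21 thus appears for Aif1 and Tyrobp, and it is among the libraries high in melanocyte markers.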

How the results depend on the processing

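Over all time points, the log2 fold changes of all 9 tested genes kept their sign under every alternative run, but not their size. Without the libraries high in melanocyte markers it was -0.19 for C1qc, -0.15 for C1qb, -0.15 for C1qa and -0.16 for Csf1r, none of which passed. With 1 library left out it ran from -0.12 to -0.04 for C1qc and from -0.11 to -0.03 for C1qb, with the most negative value of both without diabetic replicate 3 at ZT17. The call of Cx3cr1 was lost, leaving 0 of the 9 genes, with no filter on low counts (adjusted p = 0.0901), without the libraries high in lens markers (0.0742) and without those high in melanocyte markers (0.198). It held with 12 groups (0.0236) and in DESeq2 (0.0324). Leaving out 1 library gave 0 to 1 called genes, and Cx3cr1 was lost (adjusted p 0.0512 to 0.0712) without control replicates 2 or 6 at ZT1, 3 or 5 at ZT5, 1 or 5 at ZT9, 1, 3 or 4 at ZT13, 1 or 2 at ZT17 and 1, 2, 3 or 4 at ZT21. It was also lost without diabetic replicates 2 or 5 at ZT1, 2, 3, 4 or 5 at ZT5, 2, 4 or 5 at ZT9, 4 at ZT13, 4 or 5 at ZT17 and 4 at ZT21. Among all genes, 888 passed with 12 groups and 178 without the libraries high in melanocyte markers, and 432 to 618 passed with 1 library left out; the cause was not tested.

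At single time points no alternative called any of the 9 genes. Among all genes, DESeq2 called 6, 24, 4, 1, 87 and 2 in the order of the hours. With no filter it was 1 at ZT1, 3 at ZT9 and 1 at ZT21, and 3 genes passed for the difference in rhythm. With the libraries of that time point alone it was 0 at ZT1, 28 at ZT5, 5 at ZT9 and 0 at ZT17. Without the libraries high in lens markers it was 4 at ZT1, and without those high in melanocyte markers 0 at ZT1, 2 at ZT5, 0 at ZT9 and 66 at ZT17. With 1 library left out it was 0 to 4 at ZT1, 2 to 8 at ZT5, 0 to 2 at ZT9, 0 to 1 at either ZT13 or ZT21, and 3 to 96 at ZT17, where diabetic replicates 5 and 1 at ZT17 gave the extremes of 3 and 96.

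For rhythm in control retinas, 0 of the 9 genes passed by the adjusted p, by the edgeR cosine, by that cosine without the libraries high in lens markers or in melanocyte markers, or by the edgeR test of any difference between time points. In JTK_CYCLE the count was 2 without ZT1, 0 without ZT5, 3 without ZT13, 2 without ZT17, 3 without ZT21 and 2 without the libraries high in melanocyte markers. With 1 library left out it was 1 to 2, as C1qc passed (permutation p 0.0263 to 0.0498) without replicates 2 or 6 at ZT1, 3 at ZT5, 4 or 5 at ZT9, 2 at ZT13 and 1 or 2 at ZT21, and Tmem119 (permutation p = 0.0478) without replicate 4 at ZT13. In diabetic retinas it was 1 by the adjusted p, 1 without ZT1, 1 without ZT17, 0 without the libraries high in melanocyte markers in JTK_CYCLE or the edgeR cosine, and 0 by any difference between time points. With 1 library left out it was 2 to 4. C1qa passed without replicate 5 at ZT9 or replicates 3 or 5 at ZT13 (lowest permutation p = 0.0260). C1qb passed without replicate 3 at ZT1, 3 at ZT13 or 4 at ZT17 (lowest permutation p = 0.0274). Among all genes, 4172 (21.8%) were called in control and 4565 (23.9%) in diabetic retinas in the main test. Over the alternatives these counts ran from 1153 to 5212 and from 1187 to 5592. With 1 library left out they ran from 3694 to 5079 and from 3974 to 4946.

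Among all genes, rhythm was called in 1573 control and 1874 diabetic by the adjusted p, in 2532 and 2710 with the fold taken between time point means, in 2096 and 2366 by the edgeR cosine, and in 1733 and 1948 by any difference between time points. The edgeR cosine called 1844 and 2356 without the libraries high in lens markers, and 1153 and 1187 without those high in melanocyte markers. JTK_CYCLE called 2691 in control without ZT17.

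The labels do not say what the replicate numbers mark, and they were not taken to pair the samples. The deviations of 26 same-numbered pairs had a median r of 0.126, from -0.219 to 0.579, and 15 were above 0.1, among them all 4 at ZT13. With a replicate block for the number, 509 genes passed over all time points, 10 at ZT5, 2 at ZT9, 0 at ZT13 and 60 at ZT17, and with a replicate block for time point and number 1153 passed. Cx3cr1 kept its call under both (adjusted p = 0.0339 and 0.0321). With the replicate block in the edgeR cosine, 2339 control and 2689 diabetic genes passed, with 0 and 1 of the 9 genes, as C1qc had an adjusted p of 0.0527. Depth limits Aif1, at 1 to 12 reads per library, and Tyrobp, at 1 to 32.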

Other observations

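Lyve1, a hyaluronan receptor of border macrophages and lymphatic endothelium, fell over all time points from 136 ± 18.4 (SD, n = 30) to 116 ± 18.8 (SD, n = 28) normalized counts, a log2 fold change of -0.22 ± 0.0574 (SE, adjusted p = 0.0226 in edgeR). It was called rhythmic in both genotypes (permutation p = 0.0263 in control and 0.0163 in diabetic retinas), as were 21.8% and 23.9% of all genes, and neither call held after Benjamini-Hochberg adjustment (adjusted permutation p = 0.153 and 0.103). Stab1, a scavenger receptor of the same list, had 52.1 ± 12.4 and 57.96 ± 10.7, with a log2 fold change of 0.15 (adjusted p = 0.369).

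With no filter on low counts, Aif1 was called rhythmic in diabetic retinas (permutation p = 0.00605) and not in control retinas (0.595), at 1 to 12 reads per library. The difference in its rhythm between the genotypes had an unadjusted p of 0.295 in edgeR. In the same fit its log2 fold change, diabetic minus control, was -1.12 at ZT5 (unadjusted p = 0.0366, adjusted p = 0.886 in edgeR) and 0.87 at ZT9 (unadjusted p = 0.0302, adjusted p = 0.973), and neither passed after adjustment.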
